A study of Mus musculus with 24 samples.

Results

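Messenger RNA levels at 1 h and at 2 h of LPS were compared in control BMDMs, macrophages that were differentiated in culture from the bone marrow of mice. The libraries were the 6 labelled LysM-Cre at those times, 3 at 1 h and 3 at 2 h, of 24 libraries in all. LPS, a bacterial cell wall component that binds the receptor TLR4, was given at 100 ng/ml to cells of C57BL/6 background, and the age of the mice was not given in the sources used here. The series also held LysM-Cre libraries before LPS and at 0.5 h, and libraries labelled as the Fos knockout LysM-Cre Fos-fl/fl, at the same 4 times, for which FosKO stands below. The labels give all 8 groups, of 3 libraries each, the LysM-Cre driver, in which Cre sits in the lysozyme locus Lyz2 and is expressed in myeloid cells. Group means of Lyz2 itself lay between 10.94 and 11.33 in LysM-Cre and between 16.10 and 16.32 in FosKO. Whether the libraries differed at the driver locus was not tested. The design text names the control by LysM-Cre alone, the study's own text adds 1 floxed Fos allele, and these cannot be told apart here. All values were deposited log2 values, so that a difference of 1 is a doubling, and the step is the mean at 2 h minus the mean at 1 h.

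TLR4 signals through the adaptors MyD88 and TRIF to NF-kB, to MAP kinases and to interferon regulatory factors. Immediate early genes are transcribed by factors already present in the cell and many of their transcripts are short-lived. Secondary response genes need proteins made in the first wave, or remodeling of their chromatin, and in macrophages many of them answer interferon beta that the cells release and sense through their own receptor.

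The test took in genes that reached 5 on the linear scale (2 to the deposited value) in 3 or more libraries, 13901 of 24273. Within each group of the step, any pair of libraries had an r of 0.997 to 0.998 across genes. The median SD of a gene was 0.06 at both times. The 18S ribosomal RNA gene Rn18s-rs5 was 18.57 in replicate 1 at 1 h, 16.88 and 17.00 in replicates 2 and 3 at 1 h, and at least 18.88 in each library at 2 h. The 2 libraries with low 18S thus lay at the earlier time only, and the step was refitted without all 5 libraries of the series that were low in 18S and, in another fit, with low 18S as a term. The former leaves a single library at 1 h, which is assumed to vary like the others. The macrophage genes Adgre1, Csf1r and Cd68 were high at both times, with means of 14.86, 15.25 and 15.11 at 1 h and 15.16, 15.14 and 15.13 at 2 h. Of the 11 tested entries of the macrophage list (10 genes, with Itgam under 2 identifiers), 3 rose (27.3%, against 27.5% of all tested genes), 4 fell (36.4%, against 24.8%) and 4 were not called. The phagocytic receptor gene Mertk changed most among them, by -0.71, and Spi1, which encodes the lineage factor PU.1, rose by 0.45. In such bulk RNA, fewer cells expressing a gene and less RNA per cell cannot be told apart.

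Many transcripts moved within this hour, mostly by small amounts. The largest rises among well-expressed protein-coding genes were those of Nos2, which encodes inducible nitric oxide synthase, and Adamts4, a protease (4.22 and 3.98), and the largest falls those of Nr4a1, a nuclear receptor, and Dusp5, a phosphatase (-3.16 and -2.88). Limma with Benjamini-Hochberg adjustment, at an adjusted p under 0.05, called 7276 of the 13901 genes (52.3%). Of these 3827 were higher (27.5% of tested genes) and 3449 lower (24.8%) at 2 h. The higher genes were thus 52.6% of those called, but 44.4% after quantile normalization, so the side with more calls depends on the scaling. A change of at least 2-fold was called for 666 genes (4.79%), of which 451 were higher (3.24%) and 215 lower (1.55%). Among the 666, 575 were protein-coding. Over all tested genes the median step was 0.00. In the 19 libraries with high 18S the count was 5617, with 393 higher and 230 lower at 2-fold, and with 18S as a term it was 6762, with 374 and 204. The 3 libraries at 2 h lay wholly above or below the 3 at 1 h for 61.1% of tested genes. The largest estimate of all, for the gene model Gm10163 (-4.78, SE 1.78, limma adjusted p 0.0292), came from libraries that overlapped between the times.

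**Figure D1:**
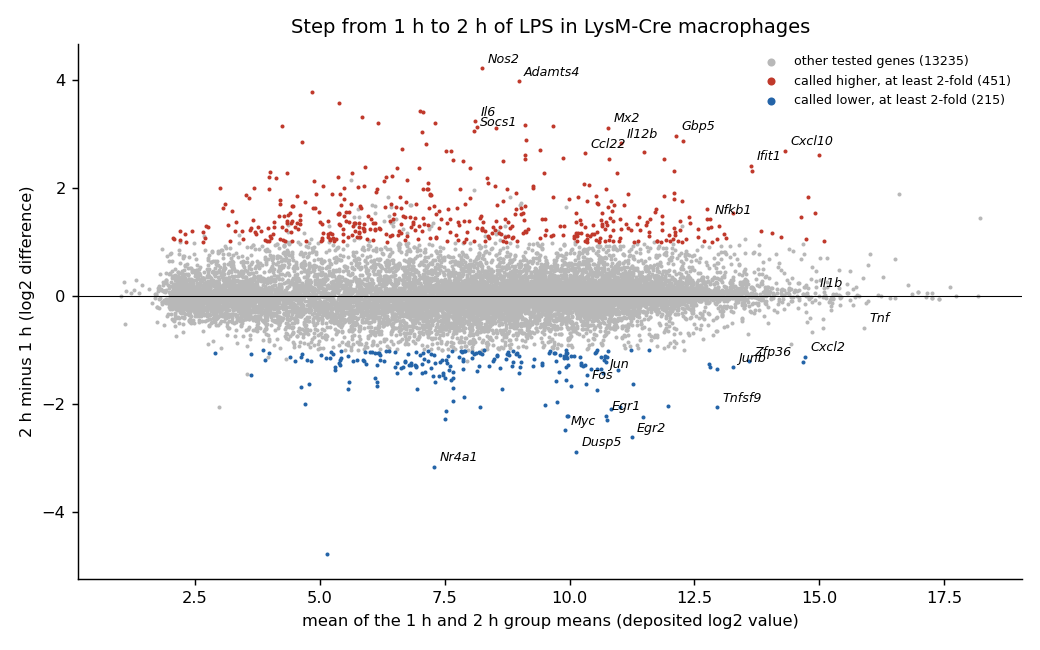
Each point is a tested gene, with the mean of its 1 h and 2 h group means on the horizontal axis and the step (2 h minus 1 h, log2) on the vertical axis. The 451 genes called higher by at least 2-fold (red) reach from low to high levels, with Nos2 at 4.22, and the 215 called lower (blue) include Nr4a1, Dusp5 and the Egr genes.

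Of the 451 genes that rose by at least 2-fold, 410 had not been called at 0.5 h against the level before LPS. Nor had 12894 of all 13901 tested genes. At 1 h, 173 of the 451 were above that level, 65 were below it and 213 were not called. By 2 h, 394 of them stood above that level. Of all tested genes, 7.24% were called in either direction at 0.5 h, 35.8% at 1 h and 60.8% at 2 h against 0 h. The median change of the 451 genes from the level before LPS was 0.15 at 1 h and 1.54 at 2 h. Of the 215 genes that fell by at least 2-fold, 71 had been higher at 0.5 h and 140 had not been called there. At 2 h 174 of them lay below the level before LPS. The median of these 215 genes was 0.00 at 1 h and -1.22 at 2 h relative to untreated cells. The 1 h and 2 h libraries enter both the step and these changes, which are therefore a description.

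The early transcripts were defined from other libraries, as the 92 genes (0.662% of those tested) called higher by at least 2-fold at 0.5 h against 0 h. In the step 54 of them fell (58.7%, against 24.8% of all tested genes), 17 rose (18.5%, against 27.5%) and 21 were not called. Their median step was -0.62, with quartiles of -1.24 and 0.07, beside a median of 0.00 over all tested genes. At least 2-fold falls made up 31.5% of them, against 1.55% of all genes. In the 19 libraries with high 18S 54 fell and 16 rose. In spite of the fall, 42 of the 54 were still above the level before LPS at 2 h, 8 were below it and 4 did not differ by the test. Of all tested genes, 60.8% were called at 2 h against 0 h, in either direction. The 0 h libraries enter both the choice of the early transcripts and these counts, which are therefore a description.

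**Figure D2:**
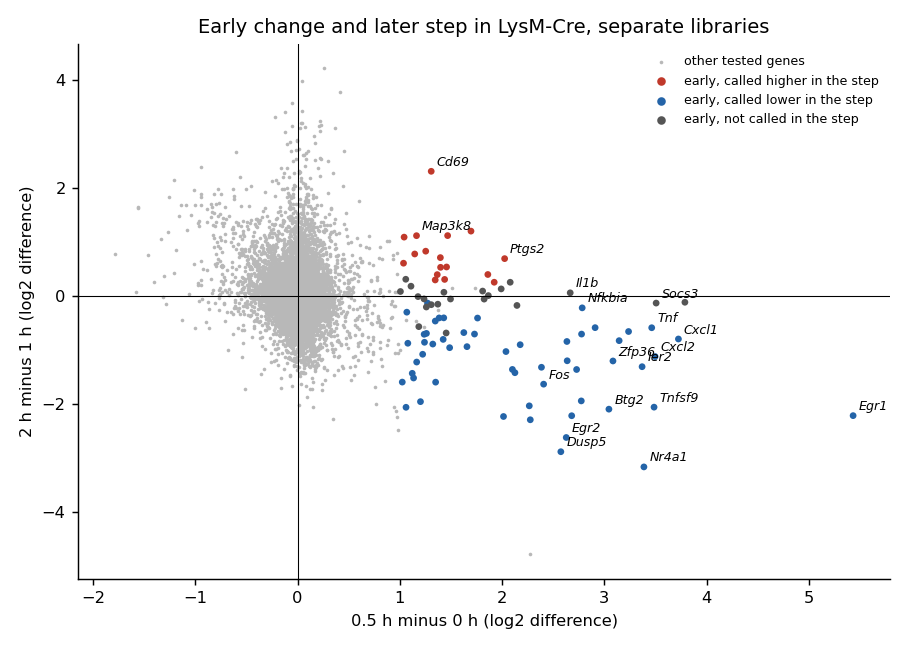
The horizontal axis is the change from 0 h to 0.5 h and the vertical axis the step from 1 h to 2 h, both as log2 differences in LysM-Cre and from separate libraries, with 1 point per tested gene. Of the 92 early transcripts (colored), 54 lie in the called-lower set, with Egr1 furthest right, and 17 are called higher, with Cd69 highest.

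Nr4a1, an orphan nuclear receptor induced by many stimuli, had the largest fall of the protein-coding genes that were well expressed and did not overlap between the times. It lies on chromosome 15 from 101254269 to 101274795 (mm10). Its values were 8.77, 8.82 and 9.01 in the 1 h libraries, falling to 5.50, 5.86 and 5.74. The times did not overlap, and the level at 2 h was back at that of untreated cells (5.73). The step was -3.16 (SE 0.12, limma adjusted p 1.06e-14).

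Dusp5, a nuclear phosphatase that inactivates ERK, came next. The libraries read 11.51, 11.52 and 11.66 at 1 h, then 8.75, 8.68 and 8.62. No library at 2 h came near any at 1 h, and the step was -2.88 (SE 0.07, limma adjusted p 3.00e-17). Dusp5 stayed above the untreated mean of 7.95. The bases before its start are shown because they hold paired CArG boxes, the element that serum response factor binds, which stand in capitals and begin 82 and 72 bases upstream. The window is the 250 bases at chr19:53528895-53529144, plus strand (RefSeq, GRCm38.p6), and at least 1 CArG box on either strand was found in 1.47% of 32851 such RefSeq windows.
Dusp5: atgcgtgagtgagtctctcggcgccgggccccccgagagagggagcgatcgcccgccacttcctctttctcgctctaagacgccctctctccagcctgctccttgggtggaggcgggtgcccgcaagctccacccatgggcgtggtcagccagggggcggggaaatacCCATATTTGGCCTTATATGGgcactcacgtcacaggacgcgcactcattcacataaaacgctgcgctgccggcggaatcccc

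The zinc finger factors of the Egr family, which are classical targets of ERK signaling, fell together. Egr1 was 11.71, 11.78 and 12.04 at 1 h, then 9.51, 9.72 and 9.67 at 2 h, and had peaked at 0.5 h with a rise of 5.43. Egr2 was 12.45, 12.50 and 12.70 and then 9.95, 9.93 and 9.92. Egr3 was 8.61, 8.66 and 8.61 and then 6.82, 6.63 and 6.60. In none of the 3 genes did the times overlap, and the tightest group was Egr2 at 2 h. The steps were -2.21, -2.62 and -1.94 (limma adjusted p at most 2.83e-13).

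Among the 20 immediate early genes of the list, 17 fell (85%, against 24.8% of all tested genes), 1 rose and 2 were not called (Dusp2, -0.11, and Nr4a2, 0.24), with a median step of -1.31, beside 0.00 over all tested genes. Btg2, an antiproliferative gene, changed by -2.09, the AP-1 subunits Fos, Jun and Junb by -1.63, -1.43 and -1.32, and Ier2 by -1.31. Nr4a3, a close relative of Nr4a1, was the exception. Its libraries were 6.36, 6.53 and 6.33 at 1 h and 8.84, 8.96 and 8.96 at 2 h. Every 2 h library was above every 1 h library, and the step was 2.51 (SE 0.12, limma adjusted p 2.59e-13). Within this receptor family the member that was high at 1 h fell while a member that was low at 1 h rose.

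Other genes with large falls had varied roles. Myc, a growth regulator, was 11.06, 11.12 and 11.26 at 1 h, against 8.69, 8.68 and 8.63 at 2 h, a step of -2.48 that took it below the untreated mean of 9.88. Kdm6b, a histone H3 lysine demethylase, went from 11.91, 11.91 and 11.89 to 9.52, 9.71 and 9.60 (-2.29). Both genes showed a gap between the times far wider than the spread within either. Gdf15, a stress-induced cytokine of the TGF beta family, changed by -2.23 and Phlda1 by -2.22. Fam214a changed by -2.27. Unlike Myc, Kdm6b, Gdf15 and Phlda1, it had been near its untreated level (8.67) at 1 h, where its libraries were 8.68, 8.61 and 8.65. Each of these calls had a limma adjusted p of at most 2.16e-14.

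Factors of messenger RNA decay moved both ways. Of the 12 tested, 5 fell (41.7%, against 24.8% of all tested genes), 4 rose (33.3%, against 27.5%) and 3 were not called. Zfp36, which encodes tristetraprolin, was 14.10, 14.09 and 14.40 at 1 h, then 12.96, 12.98 and 13.05 at 2 h, a step of -1.20 (limma adjusted p 3.12e-12). Its relatives Zfp36l1 and Zfp36l2 changed by -2.23 and -1.73. All 3 paralogs were separated between the times without overlap. Zc3h12a, which encodes the endonuclease Regnase-1, rose by 0.31, and Rc3h1, which encodes the RNA-binding protein Roquin-1, rose by 0.36.

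**Figure D3:**
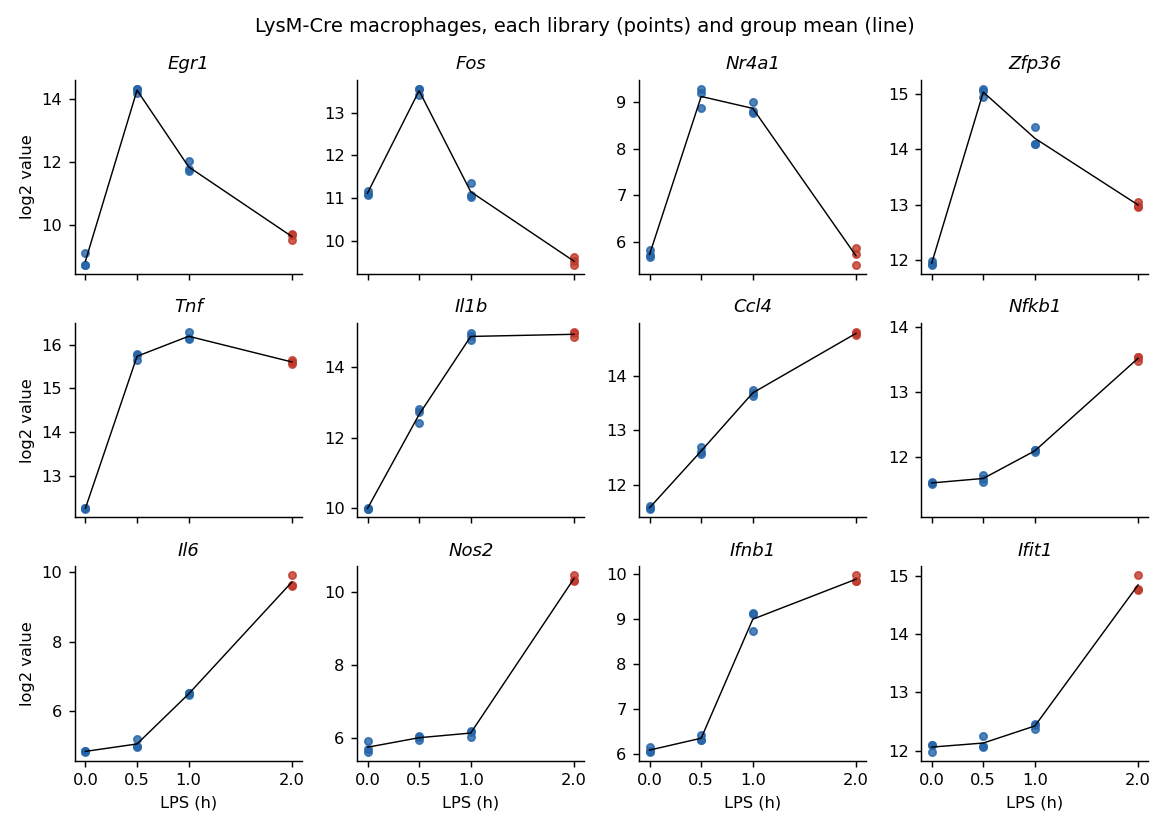
Deposited log2 values of 12 genes in LysM-Cre libraries against hours of LPS, with 3 points per time and a line through the group means; panels have their own vertical axes. Egr1, Fos, Nr4a1 and Zfp36 peak at 0.5 h and fall into 2 h. Tnf changes by -0.59 from 1 h to 2 h and Il1b is near a plateau. Il6, Nos2 and Ifit1 rise mainly in the last hour (2 h in red).

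Early NF-kB target genes split. Of 24 tested, 9 rose (37.5%, against 27.5% of all tested genes), 10 fell (41.7%, against 24.8%) and 5 were not called, and the median step was 0.04, which became -0.09 after quantile normalization. Tnf, the inflammatory cytokine, was 16.13, 16.15 and 16.29 at 1 h, against 15.57, 15.60 and 15.65 at 2 h. All 3 libraries at 2 h were lower, by a small margin, and the step was -0.59 (SE 0.06, limma adjusted p 2.10e-08). Tnfsf9, which encodes the costimulatory ligand 4-1BBL, fell far more, from 13.90, 14.01 and 14.04 to 11.86, 11.95 and 11.97 (-2.06, limma adjusted p 3.11e-15).

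The neutrophil-attracting chemokines Cxcl2 and Cxcl1 changed by -1.12 and -0.79. The call for Cxcl1 was lost in the 19 libraries with high 18S (-0.46, limma adjusted p 0.0751), where its only 1 h library was the lowest of the 3. The inhibitors of NF-kB Nfkbid, Nfkbiz and Nfkbia changed by -1.36, -0.66 and -0.22, and Tnfaip3, which encodes the ubiquitin-editing enzyme A20, by -0.58. In the other direction, the macrophage chemokines Ccl4 and Ccl3 rose by 1.09 and 0.83, Bcl3, an atypical IkB protein, by 1.15, and Ptgs2, the inducible cyclooxygenase, by 0.69. Ccl4 libraries were 13.68, 13.74 and 13.63 at 1 h and 14.74, 14.78 and 14.80 at 2 h, and did not overlap.

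Interleukin 1 did not pass the test in either direction. Il1b was 14.77, 14.89 and 14.97 at 1 h, then 14.85, 14.96 and 15.00 at 2 h, and Il1a was 12.60, 12.55 and 12.64 and then 12.58, 12.58 and 12.67. Both genes overlapped between the times, with steps of 0.06 (SE 0.08) and 0.01 (SE 0.07). Il10, an anti-inflammatory cytokine, overlapped too, at 8.17, 8.14 and 8.43 and then 8.08, 8.18 and 8.31 (-0.06, SE 0.13). All 3 cytokines had been called higher at 0.5 h, by 2.67, 1.87 and 1.82.

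Of the 5 NF-kB subunit genes, 4 rose (80%, against 27.5% of all tested genes). Nfkb1, which encodes p105 and p50, was 12.07, 12.10 and 12.10 at 1 h, against 13.47, 13.54 and 13.54 at 2 h, a step of 1.43 (SE 0.05, limma adjusted p 2.08e-15). Nfkb2, which encodes p100 and p52, rose by 1.02, Relb by 0.61 and Rela by 0.29. Rel was not called at -0.08 and was called lower after quantile normalization. The count of genes that rose was also 4 with high 18S alone, with 18S as a term and after quantile normalization.

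Most genes of the secondary response list rose, and Nos2 had the largest rise of the named genes. Nos2 (chromosome 11 from 78920787 to 78960254, mm10), was 6.03, 6.20 and 6.17 at 1 h, close to its untreated mean of 5.75. At 2 h it was 10.32, 10.29 and 10.44. No change from 0 h was called for it at 0.5 h or 1 h, and the step was 4.22 (SE 0.29, limma adjusted p 1.09e-10), beside 4.33 with high 18S alone.

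Il6, an inflammatory cytokine, had begun to rise by 1 h. Its libraries were 6.51, 6.45 and 6.50 at 1 h, above the untreated mean of 4.83, and 9.65, 9.60 and 9.92 at 2 h. The times stood far apart, and the step was 3.24 (SE 0.12, limma adjusted p 4.60e-15). Its upstream window is shown because it holds a match to an NF-kB motif, searched as GGG, any 2 bases and TTTCC, in capitals, beginning 44 bases before the start. It is the 250 bases at chr5:30012864-30013113, plus strand (RefSeq, GRCm38.p6), and 1.41% of the 32851 windows hold that motif on either strand.
Il6: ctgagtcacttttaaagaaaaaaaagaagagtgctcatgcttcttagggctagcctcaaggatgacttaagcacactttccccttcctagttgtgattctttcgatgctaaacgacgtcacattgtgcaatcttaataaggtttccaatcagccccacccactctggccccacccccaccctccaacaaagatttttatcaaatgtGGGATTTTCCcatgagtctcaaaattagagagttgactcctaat

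Of the 30 secondary response genes tested, 26 rose (86.7%, against 27.5% of all tested genes), 3 fell and 1 was not called, and the median step was 1.53, beside 0.00 over all genes. At least 2-fold rises were called for 20 of them, against 3.24% of all genes. Il12b, the p40 subunit of IL-12 and IL-23, was 9.59, 9.70 and 9.56 at 1 h, then 12.33, 12.42 and 12.59 at 2 h, a step of 2.83. Il27 rose by 3.15, and the chemokines Ccl22 and Ccl5 by 2.65 and 2.53. Ccl2 and Irf1, which had risen earlier, rose by only 0.40 each.

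The 3 members that fell were growth factors and a cytokine subunit. Csf2, which encodes GM-CSF, was 8.16, 8.03 and 8.12 at 1 h, against 6.44, 6.49 and 6.60 at 2 h, and Lif was 7.15, 7.18 and 7.09 and then 6.39, 6.30 and 6.07. The times were separate for both, at steps of -1.59 and -0.89 (limma adjusted p at most 2.86e-07). Il23a, the p19 subunit of IL-23, changed by -0.41.

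Large rises were also seen in genes that no list held, given here after Adamts4 of the secondary response list. Adamts4, a protease that cleaves aggrecan, was 7.23, 6.98 and 6.77 at 1 h, then 10.96, 10.94 and 11.01 at 2 h (3.98). Fscn1, which encodes the actin-bundling protein fascin, went from 5.35, 5.43 and 5.29 to 8.74, 8.68 and 8.87 (3.40). These groups did not overlap. The integrin subunit Itgb8 and the collagen Col27a1 both rose by 3.21, Tnfsf15 by 3.16, the transcriptional repressor Zhx2 by 3.13 and Mab21l3 by 3.58 (limma adjusted p at most 4.82e-12 for these 7 genes).

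Pakap differed among its 1 h libraries in the way that 18S did. Replicate 1 was 5.44 and replicates 2 and 3 were 3.55 and 3.59, against 7.36, 7.50 and 7.68 at 2 h. The step was 3.32 (SE 0.47, limma adjusted p 4.05e-06) from all libraries and 2.07 from the high 18S libraries.

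Interferon-stimulated genes rose almost without exception. Of 49 tested, 47 rose (95.9%, against 27.5% of all tested genes), 2 were not called (among them Oas3, 0.07) and limma called 0 lower, with none of the list below zero. At an unadjusted p under 0.05 limma had 48 of them higher and 0 lower. The median step was 1.03, and 25 rose by at least 2-fold, against 3.24% of all tested genes. In the 19 libraries with high 18S 45 rose and 0 fell, and after quantile normalization 46 rose. At 0.5 h the median change of the list had been 0.01. The chemokine gene Cxcl10 stands in both this list and the one above.

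Ifit1, an antiviral protein that binds foreign RNA, was 12.37, 12.45 and 12.45 at 1 h, near its untreated mean of 12.06, and 14.76, 14.75 and 15.00 at 2 h. The step was 2.42 (SE 0.15, limma adjusted p 3.39e-11). Mx2, named for an antiviral GTPase but annotated as a polymorphic pseudogene, was 9.22, 9.11 and 9.29 and then 12.28, 12.25 and 12.46 (3.12). The guanylate-binding protein Gbp5 was 10.64, 10.59 and 10.71 and then 13.54, 13.55 and 13.77 (2.97). All 3 genes were apart between the times by more than 2 log2 units. Cxcl10, a chemokine for T cells, rose by 2.69, Rsad2, which encodes viperin, by 2.61, Ifit2 by 1.84 and Isg15, a ubiquitin-like modifier, by 1.31.

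The windows upstream of Ifit1 and Rsad2 are shown because each holds the interferon-stimulated response element, searched as GAAA, any 2 bases and GAAA on either strand. It stands in capitals, here as its reverse complement, beginning 104 and 85 bases before the start of Ifit1 and 120 bases before that of Rsad2. The Ifit1 window is chr19:34640639-34640888 on the plus strand and the Rsad2 window chr12:26456453-26456702 on the minus strand (RefSeq, GRCm38.p6). Of the 32851 windows, 2.98% hold the element. Fewer than 80% of the genes that rose or fell by 2-fold had a window, so motif shares were not compared between them.
Ifit1: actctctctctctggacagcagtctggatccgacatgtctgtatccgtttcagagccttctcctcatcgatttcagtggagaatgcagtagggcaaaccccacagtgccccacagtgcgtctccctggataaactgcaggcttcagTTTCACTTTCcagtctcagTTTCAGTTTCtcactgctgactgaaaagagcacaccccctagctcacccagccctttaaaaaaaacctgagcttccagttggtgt
Rsad2: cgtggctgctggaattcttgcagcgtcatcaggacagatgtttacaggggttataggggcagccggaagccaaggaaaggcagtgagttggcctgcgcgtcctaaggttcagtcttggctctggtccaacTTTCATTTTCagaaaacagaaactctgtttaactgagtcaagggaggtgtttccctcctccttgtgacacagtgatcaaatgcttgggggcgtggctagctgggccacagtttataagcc

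Interferon beta had risen by 1 h. Ifnb1 was 9.14, 9.11 and 8.73 at 1 h, already above its untreated mean of 6.08, and 9.84, 9.84 and 9.97 at 2 h. The times did not overlap, and the step was 0.89 (SE 0.12, limma adjusted p 4.06e-06). Of the 6 type I interferon genes tested, 2 rose (33.3%, against 27.5% of all tested genes) and 4 were not called. Ifna5, the other that rose, overlapped between the times at a low level (0.29, limma adjusted p 0.0275), and its call was lost in 9 of the fits tried. The median step of the list, 0.27, was 0.10 with high 18S alone and 0.10 with 18S as a term. With 18S as a term, and also after quantile normalization, 1 of the genes rose. Reads can match more than 1 of the near-identical Ifna genes. Among interferon regulatory factors, Irf7 rose by 0.73 and Irf8 by 1.36.

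**Figure D4:**
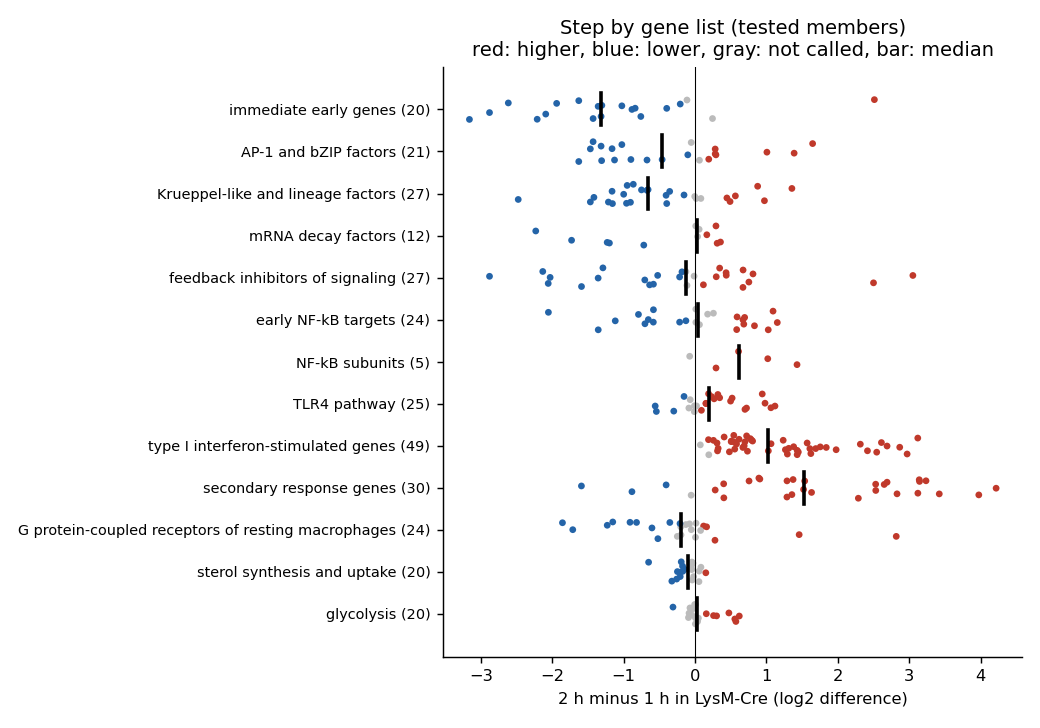
Each point is a tested member of a gene list, placed at its step from 1 h to 2 h in LysM-Cre (log2 difference), in red where called higher, blue where called lower and gray where not called; black bars are list medians. Immediate early genes center at -1.31, secondary response genes at 1.53 and interferon-stimulated genes at 1.03, whereas early NF-kB targets, at 0.04, spread to both sides.

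Feedback inhibitors of signaling moved both ways. Of 27 tested, 11 rose (40.7%, against 27.5% of all tested genes), 13 fell (48.1%, against 24.8%) and 3 were not called. Among those that fell were the MAP kinase phosphatases Dusp5, Dusp8 (-2.14) and Dusp4 (-2.06), and Errfi1 (-2.03) and Spry1 (-1.59), which restrain growth factor receptor signaling. Dusp1, which inactivates p38 and JNK, was 13.60, 13.61 and 13.67 at 1 h, against 12.25, 12.27 and 12.29 at 2 h (-1.36, limma adjusted p 1.39e-16), and its times were well apart.

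The 2 that rose by at least 2-fold were Socs1 and Cish. Socs1, an inhibitor of JAK kinases, was 6.49, 6.65 and 6.54 at 1 h, then 9.61, 9.55 and 9.68 at 2 h, a step of 3.05 (SE 0.13, limma adjusted p 6.29e-14). Cish, of the same family, went from 7.49, 7.31 and 7.46 to 9.94, 9.86 and 9.96 (limma adjusted p 1.67e-13). Neither gene had been called at 0.5 h. Socs3 had risen by 3.51 at 0.5 h and was not called in the step (-0.13, SE 0.07, limma adjusted p 0.125), but it was called lower at the same value with the 6 libraries alone (adjusted p 0.0181), with the 12 LysM-Cre libraries (0.0343) and with the replicate block (0.0254), and at -0.24 after quantile normalization.

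Of the 25 genes of the TLR4 pathway, 16 rose (64%, against 27.5% of all tested genes), 4 fell (16%, against 24.8%) and 5 were not called, with a median step of 0.19. After quantile normalization 14 rose and 6 fell. Map3k8, which encodes the kinase TPL-2, was 9.81, 9.83 and 9.91 at 1 h, against 10.89, 10.96 and 11.04 at 2 h (1.12, limma adjusted p 1.18e-12). Ikbke, which encodes an IKK-related kinase, rose by 1.06. The receptor gene went the other way, as Tlr4 was 11.17, 11.15 and 11.25 and then 10.62, 10.57 and 10.75 (-0.54, limma adjusted p 4.21e-09), and the kinase partner Tab1 changed by -0.56. The coreceptor gene Cd14 rose by 0.15, a call lost after quantile normalization and without replicate 2 or 3 at 2 h or replicate 1 at 1 h.

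AP-1 and related leucine zipper factors were mixed, with 7 of 21 higher (33.3%, against 27.5% of all tested genes), 12 lower (57.1%, against 24.8%) and 2 not called. Fosl1 was 5.93, 5.95 and 5.99 at 1 h, then 4.61, 4.61 and 4.71 at 2 h (-1.31), without overlap between the times. Batf and Batf2 rose by 1.65 and 1.39, and Atf3 by 0.28.

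Factors of the Krüppel-like family and of the macrophage lineage mostly fell, 18 of 27 (66.7%, against 24.8% of all tested genes), with 6 higher (22.2%, against 27.5%) and 3 not called. Their median step was -0.66. Klf4 was 8.74, 8.77 and 8.79 at 1 h, against 7.90, 7.93 and 7.87 at 2 h (-0.87). Irf8 and Mitf rose instead, by 1.36 and 0.97. Irf8 was 11.11, 11.17 and 11.26 and then 12.51, 12.45 and 12.65, with no overlap.

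Receptors coupled to G proteins were followed because macrophages sense adenosine, chemokines and prostaglandins through them. Of 24 tested, 5 rose (20.8%, against 27.5% of all tested genes), 10 fell (41.7%, against 24.8%) and 9 were not called. Cxcr4, the receptor for CXCL12, was 8.72, 8.82 and 8.90 at 1 h, then 6.88, 6.89 and 7.10 at 2 h (-1.86), and the cannabinoid receptor Cnr2 was 7.76, 7.76 and 7.90 and then 6.27, 5.94 and 6.07 (-1.71). The adenosine receptor Adora2a rose from 5.79, 5.49 and 5.85 to 8.55, 8.54 and 8.50 (2.82), and the prostaglandin receptor Ptger2 from 5.93, 6.03 and 5.95 to 7.46, 7.42 and 7.41 (1.46). None of these 4 genes overlapped between the times (limma adjusted p at most 3.80e-11).

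Metabolic and housekeeping lists had medians near 0. Of 20 glycolysis genes 7 rose (35%, against 27.5% of all tested genes), among them Slc16a1 (0.62) and Hk2 (0.57), 1 fell (5%, against 24.8%; Pfkm, -0.31) and 12 were not called. Their median of 0.02 became -0.09 after quantile normalization, where 9 fell. Of 20 genes of sterol synthesis and uptake 10 fell (50%, against 24.8%), with Insig1 at -0.65 and Stard4 at -0.33, and 1 rose (5%, against 27.5%). Their median was -0.10. Insig1, whose product holds back sterol regulatory proteins, was 13.21, 13.29 and 13.25 at 1 h and 12.60 in each library at 2 h. Of 80 cytosolic ribosomal protein genes 14 rose (17.5%, against 27.5%) and 1 fell (1.25%, against 24.8%), and after quantile normalization 1 rose and 11 fell, so their direction rests on the scaling. The single fall, in Rps27 (-0.61), was -0.01 with high 18S alone. Limma called 0 of the 13 mitochondrially encoded genes, with 0 at an unadjusted p under 0.05, and 4 of them as lower after quantile normalization. Txnip, a glucose-regulated gene that had fallen early, rose by 1.23.

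A list of genes with a Zfp symbol, which did not hold Zfp36l1, leaned upward. Most of its members encode zinc finger proteins that bind DNA. Of 296 tested, 149 rose (50.3%, against 27.5% of all tested genes), 52 fell (17.6%, against 24.8%) and 95 were not called. The median step was 0.21. In the 19 libraries with high 18S 124 rose and 46 fell. Zfp811 and Zfp319 rose most, by 2.20 and 1.41, and Zfp395 (-2.05) and Zfp36 (-1.20), which binds RNA, were among those that fell. In the libraries labelled FosKO 93 rose (31.4%, against 27.2% of all tested genes in that step) and 73 fell (24.7%, against 23.6%), with a median of 0.04. The difference between the LysM-Cre and FosKO steps was called for 66 of the 296, against 11.6% of all tested genes.

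Genes that mark other cell types were checked in the same libraries. Of 10 neutrophil genes 4 were tested and limma called 0, with 1 at an unadjusted p under 0.05, Ly6g lay at -2.22 and -2.21 at 1 h and 2 h, and the summed level of the tested genes, with values raised from log2, was 108 to 147 at 1 h and 126 to 167 at 2 h. Of 8 dendritic cell genes 5 were tested and 3 rose (60%, against 27.5% of all tested genes), Zbtb46 by 2.13, Xcr1 by 1.08 and Ccr7 by 0.71. Clec9a (-0.19) and Dpp4 (0.07) were not called. The tested dendritic cell genes had a summed level of 51.1 to 62.5 at 1 h and 129 to 139 at 2 h. Flt3 (1.56 and 1.72), Siglech (1.38 and 1.42) and Cd209a (-1.98 at both times) lay under the filter. The macrophage list summed to between 175756 and 188592. Of 8 B cell genes 2 were tested and limma called 0, with 0 at an unadjusted p under 0.05. Ighm, an immunoglobulin heavy chain gene, was the higher of these at 11.51 and 11.45, and the tested B cell genes summed to between 2754 and 3011. The T cell list had Cd4 at 7.74 and 7.68, not called. Lck and Pdgfrb rose by 1.33 and 1.74 from means of 3.94 and 3.84, while the T cell gene Cd3e (-1.13 and -1.10) and the stromal gene Pdgfra (-0.54 and -0.37) were under the filter. None of the natural killer, mast cell or erythroid genes was tested. The part of such cells in the step was not tested.

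The same hour was compared with the libraries labelled FosKO, which share no library with LysM-Cre. Fos itself does not verify the label, because its mean was 12.78 ± 0.10 (SD, n = 3) at 1 h and 12.80 ± 0.13 at 2 h there, above the 11.02, 11.07 and 11.34 and the 9.61, 9.42 and 9.52 of LysM-Cre. Other genes also stood apart in level at 1 h, where Ifnb1 was 12.18 ± 0.06 in FosKO and 8.99 ± 0.23 in LysM-Cre, Il10 was 6.88 ± 0.07 and 8.24 ± 0.16, and Fosl1 was 4.31 ± 0.22 and 5.95 ± 0.03 (SD, n = 3 each). The study's own RNA sequencing analysis reports the same directions in FosKO after LPS, with Ifnb1 raised and Il10 and Fosl1 lowered. The level differences given here, Lyz2 and Fos included, were not tested. Limma called 7050 genes (50.7%) in the FosKO step, 3776 higher (27.2%) and 3274 lower (23.6%). Of the 451 genes with 2-fold rises in LysM-Cre, 405 were called higher there (89.8%), and of the 215 with 2-fold falls, 207 were called lower (96.3%). Across the 13901 genes the steps correlated at r = 0.867, given as a description since genes are not independent.

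The step itself differed between the genotypes for 1619 genes (11.6%), 796 with a more positive step in LysM-Cre (5.73%) and 823 with a more negative one (5.92%). This count was 611 in the 19 libraries with high 18S. A difference of at least 2-fold was called for 31 genes (0.223%), 11 positive (0.0791%) and 20 negative (0.144%). With high 18S alone these were 19 and 16, and with a library left out the positive count was as low as 7 and, without FosKO 1 h replicate 1, as high as 17. Fos had the most negative difference of the named genes (-1.65), as it fell by 1.63 in LysM-Cre and changed by 0.02 in FosKO. Dusp5 fell by 2.88 and 1.41 (difference -1.47), and Klf4 fell in LysM-Cre and rose by 0.41 in FosKO (-1.28). Il1a and Il1b, not called in LysM-Cre, rose by 0.56 and 0.58 in FosKO, with differences of -0.55 and -0.52. Irf8 rose by 1.36 and 2.37 (-1.02). On the other side, the steps of Lancl3, Klhl42, Bahcc1 and Ptger2 were more positive in LysM-Cre by 1.08, 1.05, 1.02 and 0.96. Interferon-stimulated genes had a median step of 1.03 and 0.79. The difference of the steps was called for 4 of the 49, a smaller share than the 11.6% of all tested genes. Mx2 was among them (3.12 and 2.18). All these differences had a limma adjusted p of at most 0.00465.

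**Figure D5:**
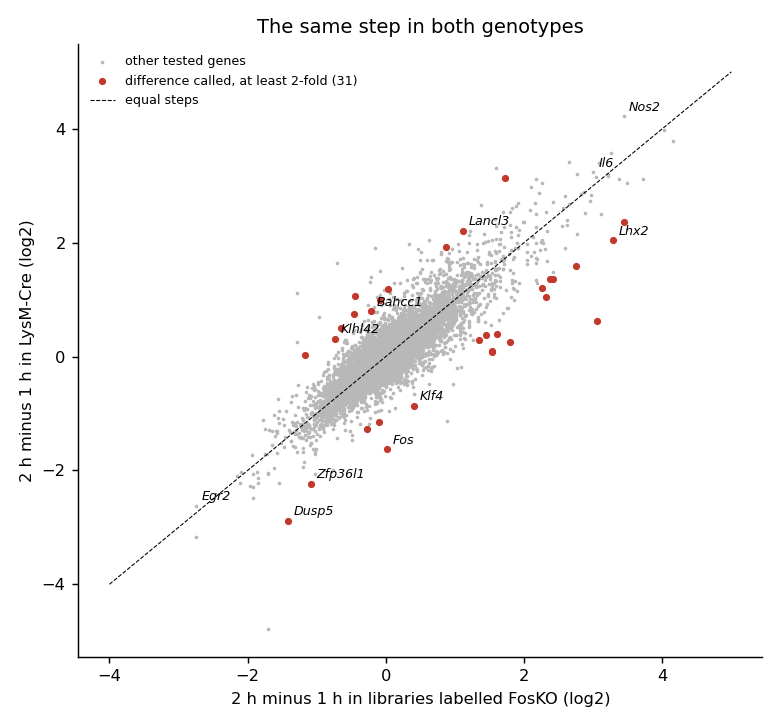
Each point is a tested gene, with its step from 1 h to 2 h in libraries labelled FosKO on the horizontal axis and in LysM-Cre on the vertical axis (log2 differences). Most genes lie near the line of equal steps (r = 0.867), and the 31 with a called difference of at least 2-fold (red) include Fos, Dusp5 and Klf4 below it.

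The early transcripts came from short genes. The 78 protein-coding early transcripts with a gene model had a median gene length of 6184.5 bp and 4 exons, against 23781 bp and 9 exons over 11909 tested protein-coding genes. The genes that rose by at least 2-fold in the step (median 23993.5 bp) and those that fell (23664 bp) were close to the latter. Among early transcripts that fell the median was 6864.5 bp. These are descriptions of the annotation, from GENCODE M21.

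Some early transcripts rose in the step. Cd69, an early activation marker of lymphocytes and myeloid cells, had risen by 1.31 at 0.5 h and rose by 2.31 in the step (limma adjusted p 3.65e-10). Sdc4, which encodes a heparan sulfate proteoglycan, rose by 0.78. With Map3k8, Ccl4, Ccl3 and Ptgs2 above, they are among the 17 early transcripts called higher, and 5 of the 17 rose by at least 2-fold.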

How the data were processed

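RNA was sequenced from BMDMs in 24 libraries, 3 per group, described by the study as biological replicates, and nothing says whether these came from separate mice, so p-values measure the spread between libraries. According to the study, the authors counted reads per gene with STAR 2.5.2a and RSEM 1.2.31 on mm10, and the submitters' processing notes name DESeq2 1.16.1. The authors deposited log2 values, already normalized, 1 per gene and library, which resemble a regularized log, so that differences of weakly expressed genes may be understated. The study's methods state a typical sequencing yield, but the depth of each library was not given in the sources used here, so no counting interval was computed. The stated annotation was RefSeq, yet the table holds Ensembl identifiers, of which 99.6% were found in GENCODE M21. In all, 1017 genes had no symbol and 32 tested genes had values identical to another gene's.

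All 24 libraries entered 1 limma fit (limma 3.58.1, R 4.3.3) of 8 group means with a variance trend and 16 residual degrees of freedom, on the values as deposited. P-values were adjusted by the Benjamini-Hochberg method over 13901 genes. With 3 against 3 libraries an exact permutation test cannot go below p = 0.1 and was not used. In simulated data for the step, 50 of 13901 genes were changed at each size. The fit recovered 80%, 94% and 100% of log2 changes of 0.5, 1 and 2 and 98% of changes of -1. There were 9 false calls among 195. The real step called 7276 genes, many more than were changed in the simulation, so these rates do not describe the real calls.

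The members, gene lists and alternatives were chosen with earlier results of these data known. Genes were named by a rule. It took the 12 largest called rises and falls of protein-coding genes with a linear mean of at least 50 and no overlap. It added the 4 largest called differences of the steps either way. Up to 2 called rises and 2 called falls per list, and a fixed set, completed it. Other genes named with a value were chosen after their values were seen. Lists are described by counts and medians, without a set test. The labels do not say that a replicate number marks a shared mouse or batch, and same-numbered libraries correlated too weakly in their deviations to be treated as pairs, so the fit with the number as a block is given among the alternatives, beside fits on fewer libraries, with 18S as a term, with other filters, scalings and variance models, and with each library left out. Promoter windows are RefSeq's, and the motif search was run on both strands. Results for some genes are not reported here.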

Additional observations from a re-analysis of the deposited data

Results flagged for a closer look

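The step from 1 h to 2 h differed between LysM-Cre and the libraries labelled FosKO for 1619 genes by the test of the difference itself. The 4 largest called differences either way among protein-coding genes with a linear mean of at least 50 are given here. The difference was 1.08 for Lancl3 (2.21 in LysM-Cre and 1.12 in FosKO, limma adjusted p 0.00122), 1.05 for Klhl42 (0.32 and -0.73, adjusted p 7.27e-06), 1.02 for Bahcc1 (0.80 and -0.22, adjusted p 1.18e-05) and 0.96 for Ptger2 (1.46 and 0.50, adjusted p 5.76e-05). It was -1.65 for Fos (-1.63 and 0.02, limma adjusted p 7.30e-08), -1.47 for Dusp5 (-2.88 and -1.41, adjusted p 2.09e-08) and -1.28 for Klf4 (-0.87 and 0.41, adjusted p 2.09e-08). For Lhx2, a homeodomain factor, it was -1.25 (2.04 and 3.29, limma adjusted p 0.0224). The call for Lhx2 was lost in the 19 libraries with high 18S (-0.97, adjusted p 0.174) and without LysM-Cre 2 h replicate 1 (-1.16, adjusted p 0.0584), LysM-Cre 1 h replicate 3 (-1.19, adjusted p 0.0549) or FosKO 1 h replicate 1 (-0.96, adjusted p 0.0648).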

How the results depend on the processing

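None of the named genes that were called changed sign under the alternatives run for it, while the medians of the early NF-kB, decay factor, glycolysis, ribosomal protein and mitochondrial lists, all within 0.1 of 0, changed sign in at least 1. For the LysM-Cre step the count of called genes lay between 5617 and 7699, beside 7276, the 2-fold rises between 374 and 525 and the 2-fold falls between 204 and 230. The difference of the steps moved most, to 611 genes in the 19 libraries with high 18S, beside 1619. Its 2-fold differences were 19 positive and 16 negative there, beside 11 and 20, and its positive count was 7 with the stricter filter. With a library left out it lay between 7 (without LysM-Cre 2 h replicate 3, LysM-Cre 1 h replicate 2, FosKO 2 h replicate 2 or FosKO 1 h replicate 2 or 3) and 17 (without FosKO 1 h replicate 1). The share of higher genes among those called was 44.4% in the LysM-Cre step, 42.1% in the FosKO step and 48.3% at 0.5 h after quantile normalization, beside 52.6%, 53.6% and 70.3%, so that lower calls outnumbered higher ones, and 38.3% for the difference of the steps after median centering and 57.7% after quantile normalization, beside 49.2%. At 0.5 h the 2-fold lower count was between 7 and 14 with a library left out, beside 9, and was 14 without LysM-Cre replicate 1 at 0.5 h. Quantile normalization moved the median step from 0.00 to -0.03 and median centering to 0.01. With the replicate number as a block, limma called 7620 genes in the LysM-Cre step (484 and 217 at 2-fold), 7334 in FosKO, 2011 in their difference and 1146 at 0.5 h. Same-numbered libraries at 1 h and 2 h in LysM-Cre correlated in their deviations at 0.03, 0.07 and 0.09, each the best match of its number, which is a hint from the data and not the design. The block turned Socs3 and Cx3cr1 into calls (-0.13 and -0.20) and lost none of the named genes. Calls were lost with high 18S alone for Klhl42 (0.25), Ifna5 (0.40), Rps27 (-0.01), Rpl14 (0.09), Cxcl1 (-0.46) and Csf1r (-0.08), and after quantile normalization for Ifna5 (0.24), Srebf2 (0.02), Rpl14 (0.13) and Cd14 (0.09). The difference of the steps could not be fitted within 1 genotype and was not run there. The causes were not tested. The depth of each library was not given, so no difference is given as absent.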

Other observations

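Genes of the cell cycle fell in the step. The lists were added after the data had been seen and are a description. Of 43 tested genes of S phase, 36 fell, 2 rose and 5 were not called, with a median step of -0.40, and in the 19 libraries with high 18S 34 fell and 2 rose. Cdc6, which licenses replication origins, changed by -1.43, Dtl by -1.38, Exo1 by -1.28 and Ccne2, which encodes cyclin E2, by -1.06. The replication factor genes Mcm5 and Mcm6 both changed by -0.21, and E2f8 and Polr1b rose by 0.72 and 0.36. Of 52 tested genes of G2 and M phase, 39 fell, 1 rose and 12 were not called, with a median of -0.35. Gas2l3 changed by -1.36, Kif20b by -1.20, Ect2 by -1.01 and Cdc20, an activator of the anaphase-promoting complex, by -0.82. Mki67, a common marker of cycling cells, was not called at -0.08, nor was Pcna at -0.02. In the libraries labelled FosKO 29 genes of each list fell, with medians of -0.28 and -0.20. Over all tested genes 24.8% fell and 27.5% rose in the LysM-Cre step, and 23.6% fell in the FosKO step.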
